A study of Mus musculus with 12 samples.

Results

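The genes described are 10 proteoglycan genes of the extracellular matrix, Acan, Epyc, Dcn, Bgn, Lum, Vcan, Fmod, Ogn, Prelp and Aspn, out of 24054 genes counted in mouse colon and colon tumours. They were taken as a list of symbols, and all 10 passed the filter on low counts that left 14860 genes for testing. The list was drawn up after an earlier look at the same counts had shown more reads of Acan, Epyc and Dcn in tumours than in normal colon, so levels and fold changes of the 10 genes are given as a description. Where a later sentence counts how many of them passed a test fitted to all genes, it stands beside the share of all genes that passed and supports nothing. Poly(A) RNA had been sequenced from 12 libraries, 4 in each of 3 groups. The N group was normal colon next to the tumours, with the genotype wild type. The BT-T group was tumour with the genotype BrafV600E;Tgfbr2-/-, which carries an activated BRAF kinase and lacks a receptor for TGF-beta. The BTPRZ-T group was tumour with the genotype BrafV600E;Tgfbr2-/-;Rnf43-/-/Znrf3-/-;p16 Ink4a-/-, which is also without a pair of ubiquitin ligases that remove WNT receptors and without a cell cycle inhibitor. All 12 libraries came from mice of the immunodeficient strain NSG, which has no mature lymphocytes, and the tumours were grown from engrafted colonic organoids. The genotypes are those of the tumour labels, and whether stromal cells in the tumours carry them was not tested. Neither an age nor an animal number is in the labels, so the 4 libraries per group may share an animal. The p-values measure the spread between these libraries, which may be technical in part.

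A proteoglycan is a core protein that carries sulphated sugar chains, chiefly chondroitin, dermatan or keratan sulphate. Aggrecan (Acan) and versican (Vcan) are large hyalectans, which bind the long sugar hyaluronan and hold water in the matrix; aggrecan is best known from cartilage. The other 8 encode small leucine-rich proteoglycans, which bind collagen fibrils and growth factors such as TGF-beta, and in the gut wall they are made mainly by fibroblasts and related stromal cells. Their classes are the first (Dcn, Bgn, Aspn), the second (Lum, Fmod, Prelp) and the third (Epyc, Ogn).

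Gene reads came to 15732004 to 26052772 per library. N replicate 2 stood apart from the other N libraries. It held reads of 14175 genes, against 16152 to 16432. Slopes with transcript length were taken on each gene's log2 level less its mean over the 12 libraries. In N replicate 2 this slope was -0.79 per doubling of length, against 0.18 to 0.29 in the other N libraries. BTPRZ-T libraries 4 and 1 also had few detected genes (13450 and 14697). Epithelial markers were present throughout, with 8 markers summing to 7395 to 16210 CPM per library (CPM, gene reads scaled to a common library total after TMM scaling, a correction for library composition). Signs of RNA quality also differed between the tumour groups. The slope with length was -0.47, -0.10, 0.07 and -0.15 in BTPRZ-T replicates 1 to 4 and 0.04 to 0.28 in BT-T, and genes of ribosomal proteins took 3.15% to 8.01% of reads in BTPRZ-T and 1.63% to 2.41% in BT-T. Their share was 9.79% in N replicate 2, beside 1.38% to 1.71% for the rest of that group. The part of these differences in the lower levels of BTPRZ-T was not tested.

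The promoters of 8 of the 10 genes could be matched in the RefSeq table for GRCm38.p6, as windows from 250 bases before to 50 after the start site; Dcn and Lum were not matched. The 4 windows below are shown because they belong to Acan and Bgn, with higher levels in both tumour groups, and to Aspn and Ogn, neighbours on chromosome 13 with their lowest levels in BTPRZ-T. Letters are lower case, with matches on either strand to any searched motif in capitals. The 7 motifs are spelled out with their counts after the windows, and matches to the same or to different motifs may overlap.
Acan (chr7:79052976-79053275, plus strand): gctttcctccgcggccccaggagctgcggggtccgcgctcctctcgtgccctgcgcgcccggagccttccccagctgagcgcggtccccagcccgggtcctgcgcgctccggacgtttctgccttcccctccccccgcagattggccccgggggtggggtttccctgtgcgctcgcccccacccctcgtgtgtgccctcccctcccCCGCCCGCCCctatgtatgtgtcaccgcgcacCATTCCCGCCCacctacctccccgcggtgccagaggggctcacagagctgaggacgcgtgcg
Bgn (chrX:73483351-73483650, plus strand): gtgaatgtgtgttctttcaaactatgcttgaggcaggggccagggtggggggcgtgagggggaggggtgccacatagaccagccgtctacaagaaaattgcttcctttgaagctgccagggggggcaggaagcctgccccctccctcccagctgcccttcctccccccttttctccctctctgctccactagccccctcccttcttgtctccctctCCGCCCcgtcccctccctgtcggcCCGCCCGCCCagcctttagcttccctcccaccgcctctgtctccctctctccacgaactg
Aspn (chr13:49544193-49544492, plus strand): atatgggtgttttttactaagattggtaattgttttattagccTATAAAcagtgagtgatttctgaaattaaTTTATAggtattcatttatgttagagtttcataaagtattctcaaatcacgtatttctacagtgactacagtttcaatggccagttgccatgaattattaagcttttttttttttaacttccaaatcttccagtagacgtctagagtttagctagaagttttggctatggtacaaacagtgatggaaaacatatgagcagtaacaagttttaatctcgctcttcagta
Ogn (chr13:49607765-49608064, plus strand): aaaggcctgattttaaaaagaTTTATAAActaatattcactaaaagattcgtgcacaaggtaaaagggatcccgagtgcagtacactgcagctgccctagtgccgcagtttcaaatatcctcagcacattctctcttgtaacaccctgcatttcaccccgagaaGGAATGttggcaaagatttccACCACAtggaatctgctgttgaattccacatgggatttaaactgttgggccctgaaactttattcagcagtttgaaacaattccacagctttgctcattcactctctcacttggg

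The first pair of windows was rich in G and C (74.0% in Acan and 63.7% in Bgn) and the other pair poor (31.0% in Aspn and 42.3% in Ogn), beside a median of 52.7% over all 32851 windows in the table. Acan and Bgn each held 3 GC boxes (GGGCGG) and Vcan held 2, and 35.7% of all windows held at least 1. Aspn and Ogn each held 2 matches to the TATA box (TATAAA), far upstream of the start (Aspn at -207 and -178, Ogn at -229 and -227), and 13.6% of all windows held at least 1. The matches in Ogn overlap each other, as do the GC boxes at -44 and -40 in Acan and at -10 and -6 in Bgn. A match to the TEAD site (GGAATG) lay in the Acan window at -12 and in the Ogn window at -86 (14.7% of all windows). A match to the RUNX site (TGTGGT) lay in the Ogn window at -65 (16.8%). The AP-1 site (TGANTCA) was in none of these 4 windows and in 7.81% of all. Nor did they hold the SOX site (ACAAAG), which 18.7% of all windows hold. The SMAD palindrome (GTCTAGAC) was likewise in none of them, and in 0.213% of all windows. The difference in G and C did not hold for every gene. The 2 windows of Epyc, which had more reads in both tumour groups, held 40.3% and 32.3% G and C and no GC box. The window with 40.3% held a RUNX match at 38, and the other held a TEAD match at -188 and a SOX match at -147. Fmod and Prelp, with 51.0% and 55.3% G and C, held none of the 7 motifs. A match is a string of letters and no evidence of binding, and the counts hold no measure of binding.

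Acan was all but absent from normal colon and present in every tumour. It stood at 0.115, 0.812, 0 and 0.202 CPM in N replicates 1 to 4, at 16.5, 57.8, 47.6 and 58.2 CPM in BT-T and at 3.87, 10.8, 12.2 and 8.69 CPM in BTPRZ-T. No group overlapped another, with BT-T highest and its replicate 1 well below the other 3 BT-T libraries. The N libraries held 17 Acan reads in all, 12 of them in replicate 2. The fitted log2 fold change was 7.33 ± 0.85 (SE) for BT-T against N, 4.99 ± 0.79 for BTPRZ-T against N and -2.34 ± 0.64 for BTPRZ-T against BT-T. Without N replicate 2 the values against N were 8.69 and 6.36. Acan lies on GRCm38 at chromosome 7, 79053483 to 79115099.

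Versican, the hyalectan of loose connective tissue, was higher in BT-T than in N by a smaller margin. Vcan (chromosome 13, 89655312 to 89742509) stood at 22.1, 45.6, 31.7 and 25.6 CPM in N, 105, 135, 114 and 143 CPM in BT-T and 59.5, 35.2, 16.6 and 81.9 CPM in BTPRZ-T. The BT-T libraries all lay above both other groups, while N and BTPRZ-T overlapped. The log2 fold changes were 1.99 ± 0.42 for BT-T against N, 0.63 ± 0.40 for BTPRZ-T against N and -1.37 ± 0.41 between the tumour groups. The ratio of versican to aggrecan reads per transcript length was 33.2 to 114 in the 3 N libraries with an Acan read, 1.39 to 3.78 in BT-T, and between 0.802 and 9.09 in BTPRZ-T, where replicate 3 had less versican than aggrecan. The ranges of N and of the tumour groups did not overlap, but the N ratios rest on 2, 12 and 3 Acan reads in replicates 1, 2 and 4.

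**Figure D1:**
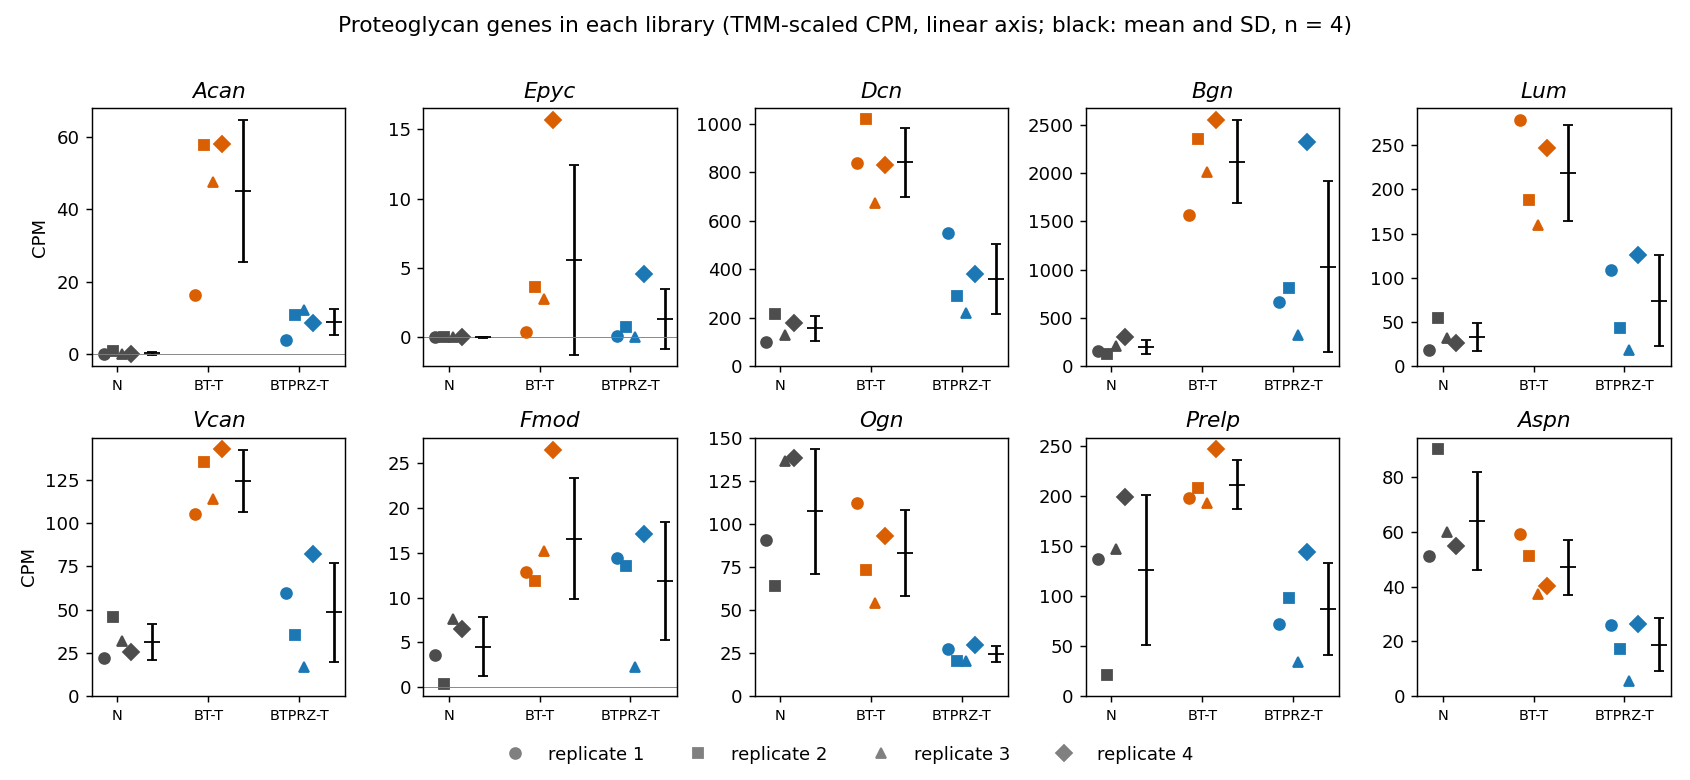
Level of each of the 10 proteoglycan genes in each library, as CPM on linear axes that differ between panels; marker shape gives the replicate, and black bars are mean and SD of 4 libraries. Acan and Epyc lie at or near 0 in N, 6 of the others are highest in BT-T on average, and Ogn and Aspn are lowest in all 4 BTPRZ-T libraries.

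Decorin and biglycan, the best known binders of collagen and TGF-beta among the class, were the most abundant of the set in tumours. Dcn (chromosome 10, 97479609 to 97518143) stood at 100.5, 217, 130.2 and 179 CPM in N, 837, 1017, 674 and 831 CPM in BT-T and 550.1, 288, 219 and 382 CPM in BTPRZ-T. The 3 groups did not overlap, in the order N, BTPRZ-T, BT-T. The log2 fold changes were 2.42 ± 0.34, 1.20 ± 0.33 and -1.22 ± 0.33, for BT-T against N, then BTPRZ-T against N, then the tumour groups against each other, an order that is kept below.

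Bgn (chromosome X, 73483602 to 73495933) stood at 158, 132, 207 and 299 CPM in N, 1562, 2351, 2014 and 2546 CPM in BT-T and 665, 815, 319.7 and 2327 CPM in BTPRZ-T. Every tumour library lay above every N library, with BTPRZ-T replicate 3 only just above and BTPRZ-T replicate 4 within the range of BT-T. The log2 fold changes were 3.41 ± 0.56, 2.37 ± 0.53 and -1.04 ± 0.51. BTPRZ-T replicate 4 decided much of the last 2 values, which were 1.61 and -1.86 without it. Bgn took 27.0 ± 4.56% of the reads of the 10 genes in N and 56.8 ± 5.35% and 56.9 ± 13.4% in the tumour groups (SD, n = 4). Dcn took 22.1 ± 8.42%, 22.8 ± 3.30% and 25.9 ± 11.2%. Per transcript length, Bgn exceeded Dcn by 1.07 to 2.94-fold in N, 3.29 to 5.39-fold in BT-T and 2.13 to 10.7-fold in BTPRZ-T.

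Asporin, of the same class, which inhibits TGF-beta in cartilage, was not higher in tumours. Aspn (chromosome 13, 49544443 to 49567565) stood at 51.2, 90.2, 59.9 and 54.9 CPM in N, 59.4, 51.2, 37.3 and 40.4 CPM in BT-T and 25.8, 17.3, 5.45 and 26.1 CPM in BTPRZ-T. N and BT-T overlapped, and BTPRZ-T lay below both. The log2 fold changes were -0.44 ± 0.40, -1.78 ± 0.41 and -1.33 ± 0.40.

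Among the second class, lumican, which spaces collagen fibrils, was highest in BT-T. Lum (chromosome 10, 97565128 to 97572703) stood at 18.7, 54.6, 31.96 and 26.8 CPM in N, 278, 188, 159.9 and 247 CPM in BT-T and 108, 43.8, 18.3 and 126 CPM in BTPRZ-T. BT-T lay above both other groups, and BTPRZ-T overlapped N, with its replicates 1 and 4 above all N libraries. The log2 fold changes were 2.73 ± 0.54, 1.17 ± 0.52 and -1.56 ± 0.52.

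Fibromodulin, which shares a collagen binding site with lumican, was scarce. Fmod (chromosome 1, 134037254 to 134048277) stood at 3.63, 0.338, 7.62 and 6.55 CPM in N, 12.8, 11.9, 15.2 and 26.5 CPM in BT-T and 14.5, 13.5, 2.203 and 17.1 CPM in BTPRZ-T. All BT-T libraries lay above N, and in BTPRZ-T 3 did while replicate 3 lay within N. The log2 fold changes were 1.87 ± 0.75, 1.38 ± 0.74 and -0.49 ± 0.72, and the first was 1.48 without N replicate 2, where Fmod had 5 reads.

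Prelp, which links basement membranes to the matrix, was already abundant in normal colon. Prelp (chromosome 1, 133910304 to 133921414) stood at 136, 21.0, 147 and 199 CPM in N, 198, 208, 192 and 247 CPM in BT-T and 72.0, 98.1, 33.4 and 144 CPM in BTPRZ-T. N overlapped both tumour groups, and BTPRZ-T lay below BT-T. The log2 fold changes were 0.75 ± 0.55, -0.53 ± 0.55 and -1.28 ± 0.55. N replicate 2 was far below the other N libraries, and without it the first 2 values were 0.40 and -0.89.

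Epiphycan, a small proteoglycan of cartilage, had 1 read in the 4 N libraries together. Epyc (chromosome 10, 97644068 to 97682454) stood at 0.383, 3.60, 2.75 and 15.7 CPM in BT-T (460 reads) and 0.0645, 0.766, 0 and 4.54 CPM in BTPRZ-T (121 reads). Libraries of 1 tumour group differed widely, from 11 to 309 reads in BT-T and from 0 to 104 in BTPRZ-T. The ratio of BT-T to N was 316, with a 95% counting interval of 56.4 to 12509, and that of BTPRZ-T to N was 99.8 (17.6 to 3974), intervals that cover counting error only. Between the tumour groups the fitted value was -2.04 ± 1.36, and it ran from -4.29 without BTPRZ-T replicate 4 to -0.73 without BT-T replicate 4.

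Osteoglycin, also called mimecan, was the gene of the set with the lowest share of its normal level in BTPRZ-T. Ogn (chromosome 13, 49608046 to 49624501) stood at 90.8, 63.8, 137 and 138 CPM in N, 112, 73.2, 53.9 and 92.9 CPM in BT-T and 27.2, 20.4, 20.4 and 29.5 CPM in BTPRZ-T. N and BT-T overlapped, and all BTPRZ-T libraries lay below both and close together. The log2 fold changes were -0.37 ± 0.30, -2.14 ± 0.31 and -1.77 ± 0.31. Of the reads of the 10 genes, Ogn took 14.7 ± 3.33% in N, against 2.28 ± 0.862% in BT-T and 1.85 ± 0.936% in BTPRZ-T (SD, n = 4).

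**Figure D2:**
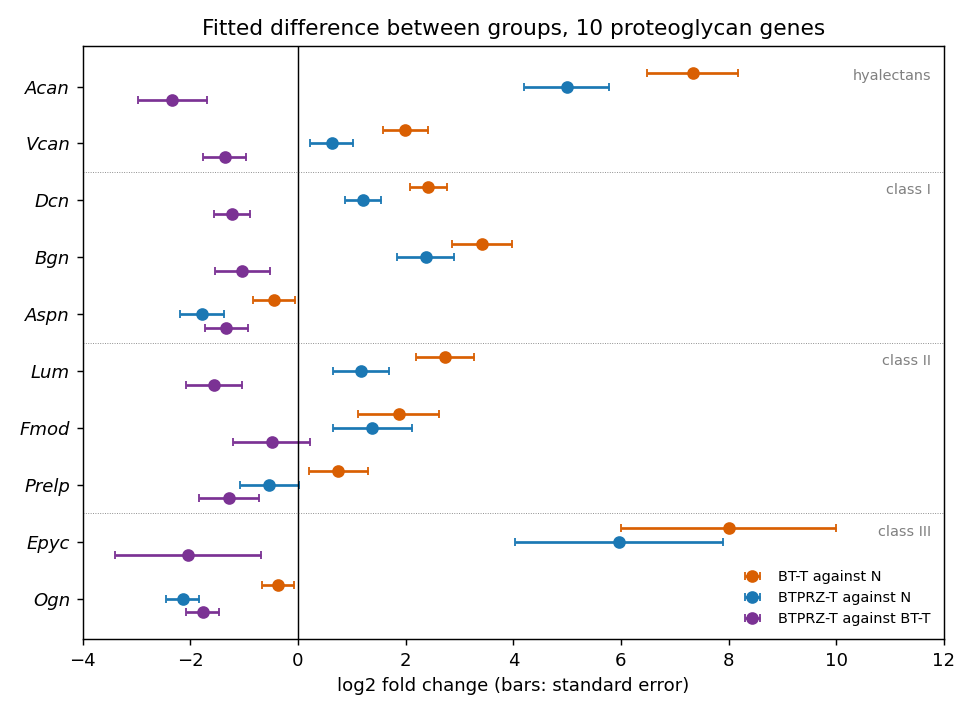
Fitted log2 fold changes of the 10 genes (points) with standard errors (bars) in the 3 comparisons, grouped by hyalectans and the classes of leucine-rich proteoglycans. In BT-T against N, 8 of 10 values are positive, and in BTPRZ-T against BT-T all 10 are negative.

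Compared per kilobase of the longest transcript, the order of the levels differed between normal colon and tumour. In N the order was Bgn (74.6 ± 27.7 CPM per kb), Ogn (41.9 ± 14.2), Prelp (34.8 ± 20.7), Dcn (33.4 ± 10.98), Aspn (27.5 ± 7.64) and Lum (13.5 ± 6.30), where Ogn, Prelp, Dcn and Aspn lay within each other's spread. In BT-T it was Bgn (795 ± 162), Dcn (179 ± 29.9), Lum (89.2 ± 22.1), Prelp (58.4 ± 6.77), Ogn (32.4 ± 9.79) and Aspn (20.2 ± 4.35). In BTPRZ-T the first 6 kept the order of BT-T, from Bgn at 387 ± 333 to Aspn at 8.02 ± 4.17, and Lum and Prelp lay within each other's spread, as did Ogn and Aspn. Vcan, Fmod, Acan and Epyc were the lowest 4 in every group.

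In BT-T against N, 7 of the 10 genes lay above N with no overlap between the groups, beside 13.4% of all genes tested, and none lay wholly below (9.02%). By edgeR's quasi-likelihood test over all genes, 6 were called higher (Acan, Epyc, Dcn, Bgn, Lum and Vcan), beside 5.67% of all genes, and none lower (2.90%). The call of Epyc ended on leaving out N replicate 1, 3 or 4, or BT-T replicate 2 or 4. In BTPRZ-T against N, 3 were called higher (Acan, Dcn and Bgn; 5.66% of all genes) and 2 lower (Ogn and Aspn; 6.18%). The same 5 genes were the ones with no overlap, 3 above N and 2 below, beside 6.88% and 7.64% of all genes. Dcn lost this call on leaving out N replicate 1, 3 or 4, or BT-T replicate 1, 2 or 4, or BTPRZ-T replicate 1, 2 or 4. Since these comparisons shaped the list, nothing is read from the counts. Both use the same 4 N libraries.

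Between the tumour groups, all 10 fitted values were negative, with a median of -1.35 beside -0.03 over all genes tested. The list was chosen with earlier results of these data known, so nothing is read from this contrast either. In 7 genes (Acan, Dcn, Lum, Vcan, Ogn, Prelp and Aspn) every BTPRZ-T library lay below every BT-T library, beside 12.7% of all genes. With all libraries in the fit only Ogn was called, lower in BTPRZ-T, beside 0.599% of all genes. Without N replicate 2, which belongs to neither group but shares the estimate of the spread, 7 were called lower, beside 8.23% of all genes. Leaving out BTPRZ-T replicate 4 gave 3, beside 400 of all genes called in either direction (112 with all libraries). Ogn lost its call without N replicate 1, BT-T replicate 1, 2 or 4, or BTPRZ-T replicate 1, 2 or 3. With N replicate 2 and BTPRZ-T replicates 1 and 4 left out together, the 10 values between the tumour groups ran from -3.78 (Epyc) to -1.04 (Fmod). Against N, that setting lowered the BTPRZ-T values of Bgn to 1.44, Lum to 0.35, Vcan to 0.04, Fmod to 0.50 and Prelp to -1.21. Within BTPRZ-T, replicate 3 was the lowest library for 9 of the 10 genes and replicate 4 the highest for 8.

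On average, the summed levels of the 10 genes and of fibroblast markers were both highest in BT-T and lowest in N. By their means Ogn, Aspn and Prelp did not follow this order, nor did the markers Pdgfra, Postn and Fbln1. The 10 genes together summed to 581 to 929.6 CPM in N, to 3182 to 4247 CPM in BT-T and to 648 to 3146 CPM in BTPRZ-T. A list of 10 fibroblast markers summed to 1394 to 2220.5, 8079 to 16879 and 1850.3 to 8560 CPM in the same groups, again with the lowest tumour value in BTPRZ-T replicate 3. Of these markers 7 rose in BT-T against N and 3 in BTPRZ-T against N, and none was called between the tumour groups. Col1a1, the main fibrillar collagen chain, rose from 242 ± 95.5 to 3180.3 ± 991 CPM in BT-T (3.71 ± 0.58, adjusted p = 0.00232 by edgeR). The list's median log2 fold change was 1.80 in BT-T and 0.87 in BTPRZ-T against N. Between the tumour groups it was -1.26, beside -1.35 for the 10 proteoglycan genes. Levels were also set against the mean log2 level of the fibroblast markers in the same library. On this scale Bgn stood at 0.99 to 1.55 in N and 2.34 to 2.55 in BT-T. Dcn stood at 0.55 to 1.70 and 0.72 to 1.55, and Ogn at -0.06 to 0.62 and -2.68 to -1.35. For BTPRZ-T the ranges were 2.00 to 2.86 (Bgn), 0.25 to 2.07 (Dcn) and -3.43 to -1.97 (Ogn). Each overlapped the BT-T range of the same gene. The mean for Ogn was -2.25 ± 0.61 (SD) in BT-T, beside -2.55 ± 0.63 for BTPRZ-T. The part of fibroblast content in these results was not tested, and in whole tissue fewer cells of a type and less RNA per cell cannot be told apart.

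Smooth muscle markers, like Ogn and Aspn, were lowest in BTPRZ-T. The 8 markers summed to 7171 to 18948 CPM in N, to 3582 to 5880.0 CPM in BT-T and to 447 to 4761 CPM in BTPRZ-T. Of them 5 fell in BTPRZ-T against N, 2 in BTPRZ-T against BT-T, and none was called in BT-T against N (median -1.27). Endothelial markers (6 genes) summed to 82.2 to 198, 315 to 653 and 238 to 471 CPM, and macrophage markers (6 genes) to 62.3 to 285, 712 to 1531 and 192 to 2028 CPM. The part of these cell types in the results was not tested.

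**Figure D3:**
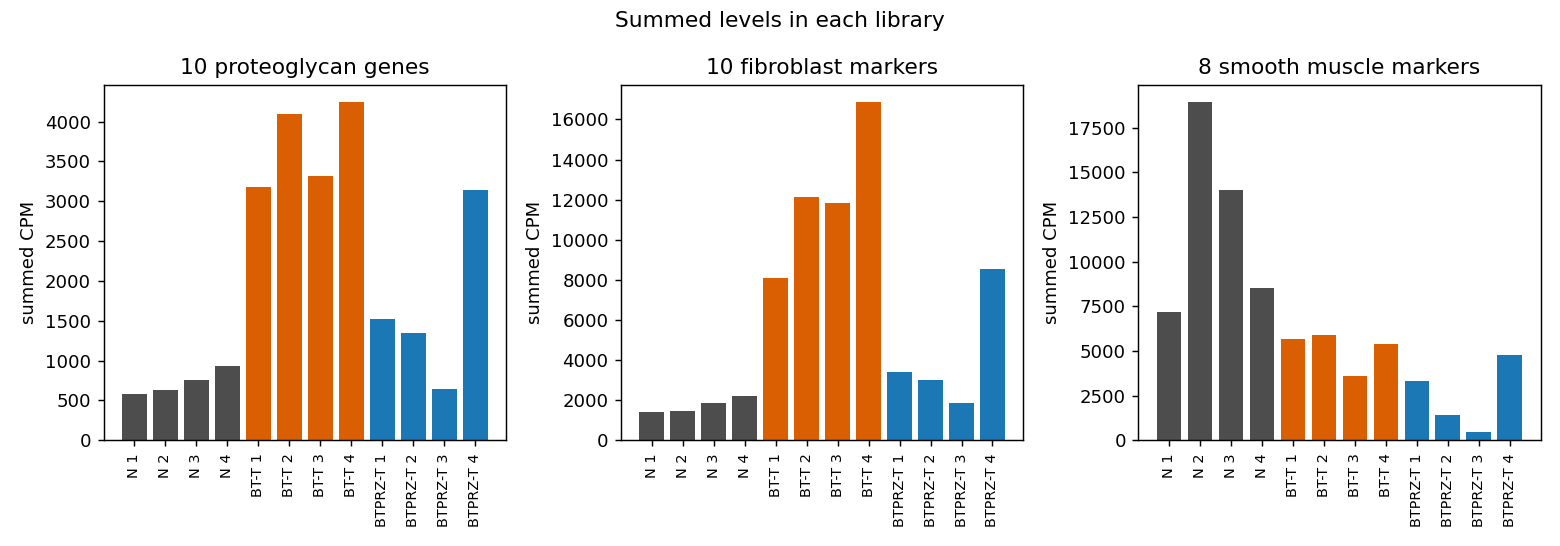
Summed CPM in each library (bars, linear axes from 0) of the 10 proteoglycan genes, 10 fibroblast markers and 8 smooth muscle markers, coloured by group. The first 2 sums are higher in all BT-T libraries than in all N libraries, and BTPRZ-T replicate 3 has the lowest tumour value in all 3 panels.

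Although Acan and Epyc are known from cartilage, 6 of 10 chondrocyte markers had at most 8 reads in any group. Col2a1, the collagen of hyaline cartilage, had 1, 0 and 8 reads in N, BT-T and BTPRZ-T. Matn1 and Ucma had no read in any library, and Col9a1, Matn3 and Snorc had at most 3 in any group. Hapln1 was present, with 355, 549 and 174 reads, the most of the list. The list of 10 chondrocyte markers summed to 5.81 to 10.3 CPM in N, to 6.59 to 10.4 CPM in BT-T and to 4.41 to 6.197 CPM in BTPRZ-T. Sox9, a transcription factor of chondrocytes and of intestinal crypts, stood at 123 ± 52.9, 125 ± 21.0 and 117 ± 20.7 CPM in the 3 groups and was not called (adjusted p = 0.970 and 0.928 against N). The set is called here by its genes, and whether any cells were cartilage-like was not tested.

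Of 23 other genes known from cartilage, 15 could be tested, and 4 rose in BT-T against N. Their median log2 fold change was 0.58, beside -0.10 over all genes tested. Col10a1, a collagen of hypertrophic cartilage, stood at 0.403, 2.71, 0.354 and 0 CPM in N and 79.6, 420.1, 239 and 258 CPM in BT-T (8.18 ± 1.32, adjusted p = 0.00282; 9.86 without N replicate 2). Cilp, a matrix protein of cartilage and fibroblasts, rose from 5.87 ± 2.57 to 99.3 ± 42.0 CPM (4.08 ± 0.63, adjusted p = 0.00223), and Runx2, a transcription factor of bone and hypertrophic cartilage, from 1.40 ± 1.06 to 13.9 ± 2.64 CPM (3.31 ± 0.57, adjusted p = 0.00383). Col11a1, a minor fibrillar collagen, also rose (3.71 ± 0.97, adjusted p = 0.0330; 4.43 without N replicate 2), and dropped out on leaving out N replicate 1, 3 or 4 or any BT-T library. Comp, a cartilage matrix protein, stood at 0.382 ± 0.271 and 1.41 ± 0.914 CPM and was not called (adjusted p = 0.365).

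The same 4 genes rose in BTPRZ-T against N, and Hapln1 and Ihh fell. Col10a1 stood at 13.4, 138, 8.59 and 118 CPM (6.34 ± 1.23, adjusted p = 0.00629), with replicates 1 and 3 far below the other 2, and the value was 8.02 without N replicate 2. Runx2 changed by 2.39 ± 0.55, adjusted p = 0.0151, Cilp by 2.08 ± 0.58, adjusted p = 0.0364 and Col11a1 by 3.37 ± 0.95, adjusted p = 0.0380. The Col11a1 value was 4.10 without N replicate 2 and 2.46 without BTPRZ-T replicate 4. Hapln1, the link protein that ties aggrecan to hyaluronan, went from 5.61 ± 0.997 to 2.27 ± 0.494 CPM (-1.30 ± 0.37, adjusted p = 0.0387), while in BT-T it stood at 6.06 ± 1.48 CPM (adjusted p = 0.894). The change of Ihh, the hedgehog ligand of cartilage and colonocytes, was -0.92 ± 0.27, adjusted p = 0.0424. Leaving out 1 library ended the call of Cilp (N replicate 1 or 4, BT-T replicate 3 or 4, BTPRZ-T replicate 2 or 4), Col11a1 (any but N replicate 2 and BTPRZ-T replicate 3), Ihh (the same libraries) and Hapln1 (any but N replicate 2 and BTPRZ-T replicate 4). Between the tumour groups none of the 15 was called.

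The relatives that lie beside the 10 genes on the chromosomes were mostly silent or scarce. Dcn, Lum, Kera and Epyc follow each other on chromosome 10 within 202.8 kb with no other protein-coding gene between them. Kera, a proteoglycan of the cornea, had 7 reads, all in BT-T, while its neighbours on both sides had the values given above. On chromosome 13, Ecm2, Aspn, Omd and Ogn lie within 119.7 kb, all inside the span of Cenpp, a centromere gene on the opposite strand. Omd, a proteoglycan of bone, had 3, 15 and 6 reads in N, BT-T and BTPRZ-T. Ecm2 stood at 5.99, 0, 7.98 and 4.66 CPM in N, 5.82, 6.87, 5.95 and 7.75 CPM in BT-T and 0.968, 1.58, 0.992 and 2.62 CPM in BTPRZ-T. Like Aspn and Ogn, it lay below BT-T in every BTPRZ-T library, though it was not called (-2.09 ± 0.92, adjusted p = 0.274). On chromosome 1, Optc, a proteoglycan of the eye, stood at 27.6 ± 13.2, 7.24 ± 2.29 and 7.10 ± 8.49 CPM in the 3 groups, with adjusted p-values of 0.175 and 0.155 against N, while its neighbours Prelp and Fmod had other patterns. Reads of the 10 genes on the opposite strand numbered 0 to 3 per gene and library.

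**Figure D4:**
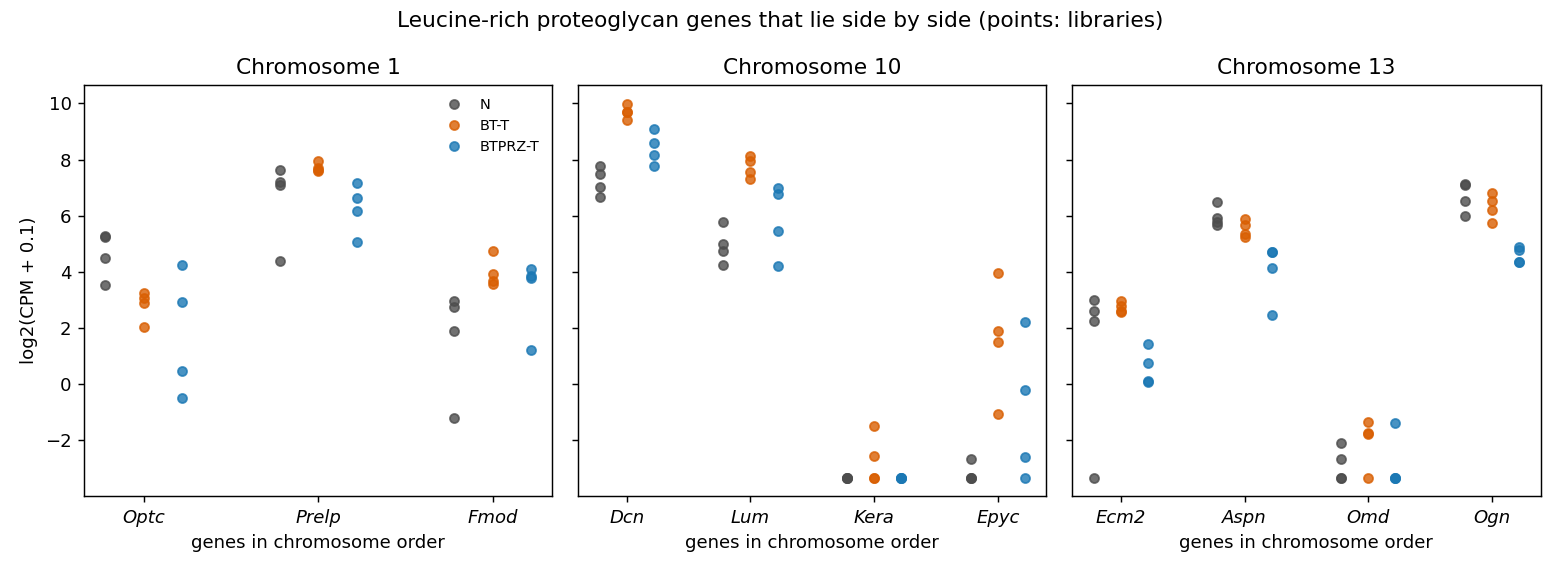
Levels as log2(CPM + 0.1) of the leucine-rich proteoglycan genes that lie side by side on chromosomes 1, 10 and 13, in chromosome order, with 1 point per library coloured by group. Dcn and Lum are higher in BT-T than in N while Kera between Lum and Epyc is near 0, and Ecm2, Aspn and Ogn are lower in BTPRZ-T than in BT-T.

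Of 10 other leucine-rich proteoglycans, 7 could be tested. In BT-T against N, 1 rose, Podnl1, a member of the podocan class. It had no read in N, and 151 and 119 reads in the tumour groups (BT-T first), at least 34.6-fold and 32.7-fold higher with N set at 3 reads over the group (adjusted p = 0.0284 and 0.0215). BTPRZ-T replicate 4 had none. The call in BT-T was lost on leaving out N replicate 1 or 3 or any BT-T library, and that in BTPRZ-T without N replicate 1. In BTPRZ-T, Tsku, a secreted inhibitor of growth factor signals, fell from 53.1 ± 28.8 to 12.8 ± 6.36 CPM (-2.05 ± 0.45, adjusted p = 0.0123), and Chadl, a relative of chondroadherin, fell from 2.53 ± 1.46 to 0.160 ± 0.234 CPM (-3.94 ± 1.08, adjusted p = 0.0329; -5.50 without BTPRZ-T replicate 3). Chadl dropped out on leaving out N replicate 1 or 3, any BT-T library, or BTPRZ-T replicate 1 or 2.

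The enzymes that build chondroitin and dermatan sulphate, the chains carried by several of the 10 core proteins, were tested in 21 of 22 cases. In BT-T against N, 4 rose and none fell, with a list median of 0.91 beside -0.10 over all genes. Chst11, which sulphates chondroitin at the 4-position, rose from 12.3 ± 5.38 to 65.4 ± 8.63 CPM (2.41 ± 0.44, adjusted p = 0.00536). Chsy1, a chondroitin synthase, rose from 9.78 ± 2.88 to 32.1 ± 4.02 CPM (1.72 ± 0.28, adjusted p = 0.00256), and Dsel, an epimerase for dermatan sulphate, from 7.74 ± 1.26 to 21.0 ± 1.28 CPM (1.44 ± 0.29, adjusted p = 0.00851). Csgalnact1, which starts the chondroitin chain, rose as well (2.16 ± 0.59, adjusted p = 0.0396) and dropped out on leaving out N replicate 1, 3 or 4, or BT-T replicate 2, 3 or 4, or BTPRZ-T replicate 2.

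In BTPRZ-T against N only Chsy1 of these 21 was called (1.59 ± 0.27, adjusted p = 0.00304). Dsel was the single gene of all 91 companion genes tested that was called between the tumour groups. It stood at 19.2, 21.6, 20.9 and 22.1 CPM in BT-T and 4.26, 9.86, 8.98 and 7.94 CPM in BTPRZ-T, beside 8.35, 7.11, 9.16 and 6.34 CPM in N (-1.43 ± 0.29, adjusted p = 0.0482). The BT-T libraries lay together above all others. The call was lost on leaving out N replicate 1, 3 or 4, any BT-T library, or BTPRZ-T replicate 1, 2 or 3. Without N replicate 2, 19 of 92 companion genes were called between the tumour groups (4 higher and 15 lower), beside 2714 of all genes. Without BTPRZ-T replicate 4 the number was 8 companion genes, beside 400 of all genes.

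Among 7 tested enzymes of keratan sulphate, the chain carried by lumican and fibromodulin, Chst2 rose and Chst4 fell in BT-T. Both are sulphotransferases that also act on mucins and on vessel glycoproteins. Chst2 went from 3.86 ± 2.35 to 14.2 ± 3.04 CPM (1.88 ± 0.45, adjusted p = 0.0221) and Chst4 from 313 ± 53.3 to 119 ± 49.5 CPM (-1.40 ± 0.33, adjusted p = 0.0204). Chst2 dropped out on leaving out N replicate 1 or 3 or BT-T replicate 2, 3 or 4, and Chst4 without BT-T replicate 2, 3 or 4. None of the 7 was called in BTPRZ-T against N.

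Genes for hyaluronan, the partner of aggrecan and versican, moved in both directions. Has2, a hyaluronan synthase, stood at 0.403, 0.677, 0.591 and 0.607 CPM in N, 10.001, 22.4, 11.6 and 5.52 CPM in BT-T and 11.7, 4.21, 1.21 and 11.2 CPM in BTPRZ-T, with every tumour library above every N library. It rose against N in both, by 4.43 ± 0.72, adjusted p = 0.00288 in BT-T, and by 3.62 ± 0.70, adjusted p = 0.00611 in BTPRZ-T. Cemip, which breaks hyaluronan down, rose from 1.06 ± 0.945 CPM to 19.4 ± 16.1 in BT-T (4.21 ± 0.76, adjusted p = 0.00506) and to 10.4 ± 2.24 CPM in BTPRZ-T (3.30 ± 0.74, adjusted p = 0.0128). The Cemip values were 4.94 and 4.03 without N replicate 2, and the first was 3.46 without BT-T replicate 2. Cd44, a hyaluronan receptor, rose in BTPRZ-T, from 155 ± 41.8 to 441 ± 71.9 CPM (1.51 ± 0.28, adjusted p = 0.00415), with an adjusted p of 0.0529 in BT-T.

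The hyalectan of brain, Bcan, fell in both tumour groups. It had 177, 21 and 2 reads in the 3 groups (BT-T against N -3.58 ± 0.94, adjusted p = 0.0342). The ratio of BTPRZ-T to N was 0.00932, with a 95% counting interval of 0.00112 to 0.0342 (adjusted p = 0.00352). Hapln4, a brain link protein, fell in BT-T from 5.07 ± 4.57 to 0.634 ± 0.395 CPM (-2.99 ± 0.77, adjusted p = 0.0323; -2.22 without N replicate 3). In BT-T, Bcan dropped out on leaving out N replicate 1 or 3 or any BT-T library, and Hapln4 on leaving out N replicate 1 or 3 or BT-T replicate 1, 2 or 4. Of the 12 genes tested in this list, 2 rose and 2 fell in BT-T, and 3 rose and 1 fell in BTPRZ-T.

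Of 8 tested genes for proteases of aggrecan and versican, counting their inhibitor Timp3, 2 rose in BT-T and 1 in BTPRZ-T. Adamts4, an aggrecanase, stood at 2.88, 2.10, 5.02 and 4.86 CPM in N, 28.8, 45.5, 38.3 and 36.0 CPM in BT-T and 16.7, 18.1, 14.8 and 27.5 CPM in BTPRZ-T. The 3 groups did not overlap, in the order N, BTPRZ-T, BT-T, as for Acan and Dcn. It rose against N in both, by 3.32 ± 0.35, adjusted p = 0.000325 in BT-T, and by 2.37 ± 0.33, adjusted p = 0.00106 in BTPRZ-T. Adamts15, which cleaves both hyalectans, stood at 6.68, 12.7, 4.49 and 50.5 CPM in N and 139.6, 117, 129 and 108 CPM in BT-T, and rose (2.73 ± 0.62, adjusted p = 0.0180). N replicate 4 was far above the other N libraries, and without it the value was 3.96. Adamts5, the other main aggrecanase, stood at 4.70 ± 1.54, 12.8 ± 5.45 and 4.84 ± 2.86 CPM and was not called (adjusted p = 0.0763 in BT-T).

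Proteoglycans of the cell surface, basement membrane and granules were tested for 21 of 24 genes. In BT-T 4 rose and none fell. They were the basement membrane collagen Col18a1 (2.28 ± 0.31, adjusted p = 0.00113), the glypicans Gpc1 (2.12 ± 0.40, adjusted p = 0.00636) and Gpc4 (0.70 ± 0.20, adjusted p = 0.0498), and Srgn, the proteoglycan of white blood cell granules (2.33 ± 0.55, adjusted p = 0.0218). Gpc4 dropped out on leaving out any single library other than N replicate 2 and BTPRZ-T replicate 4, and Srgn on leaving out N replicate 1 or 3 or BT-T replicate 2. In BTPRZ-T 4 rose and 3 fell. Col18a1 rose (2.15 ± 0.31, adjusted p = 0.00126), and Sdc1, the syndecan of epithelial cells, rose from 345 ± 58.8 to 929 ± 128 CPM (1.43 ± 0.24, adjusted p = 0.00245). Sdc2, the syndecan of mesenchymal cells, fell from 90.5 ± 6.67 to 33.7 ± 14.02 CPM (-1.43 ± 0.29, adjusted p = 0.00754), and Spock1, a secreted proteoglycan, fell from 8.53 ± 5.63 to 0.740 ± 0.306 CPM (-3.51 ± 0.77, adjusted p = 0.0113).

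Over the 7 lists, which hold 111 genes, 91 were tested. These lists too were chosen with earlier results of these data known, so nothing is read from the shares below. In BT-T against N, 18 rose and 3 fell, which is 23.1% beside 8.57% of all genes tested. In BTPRZ-T against N, 14 rose and 8 fell, 24.2% beside 11.8%. The number called in BT-T was 12 or 13 without N replicate 1 or BT-T replicate 2 or 4, and in BTPRZ-T it was 14 without N replicate 1. Between the tumour groups 1 fell, 1.10% beside 0.754%. The lists' median log2 fold changes were 0.65, 0.12 and -0.58, beside -0.10, -0.10 and -0.03 over all genes.

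**Figure D5:**
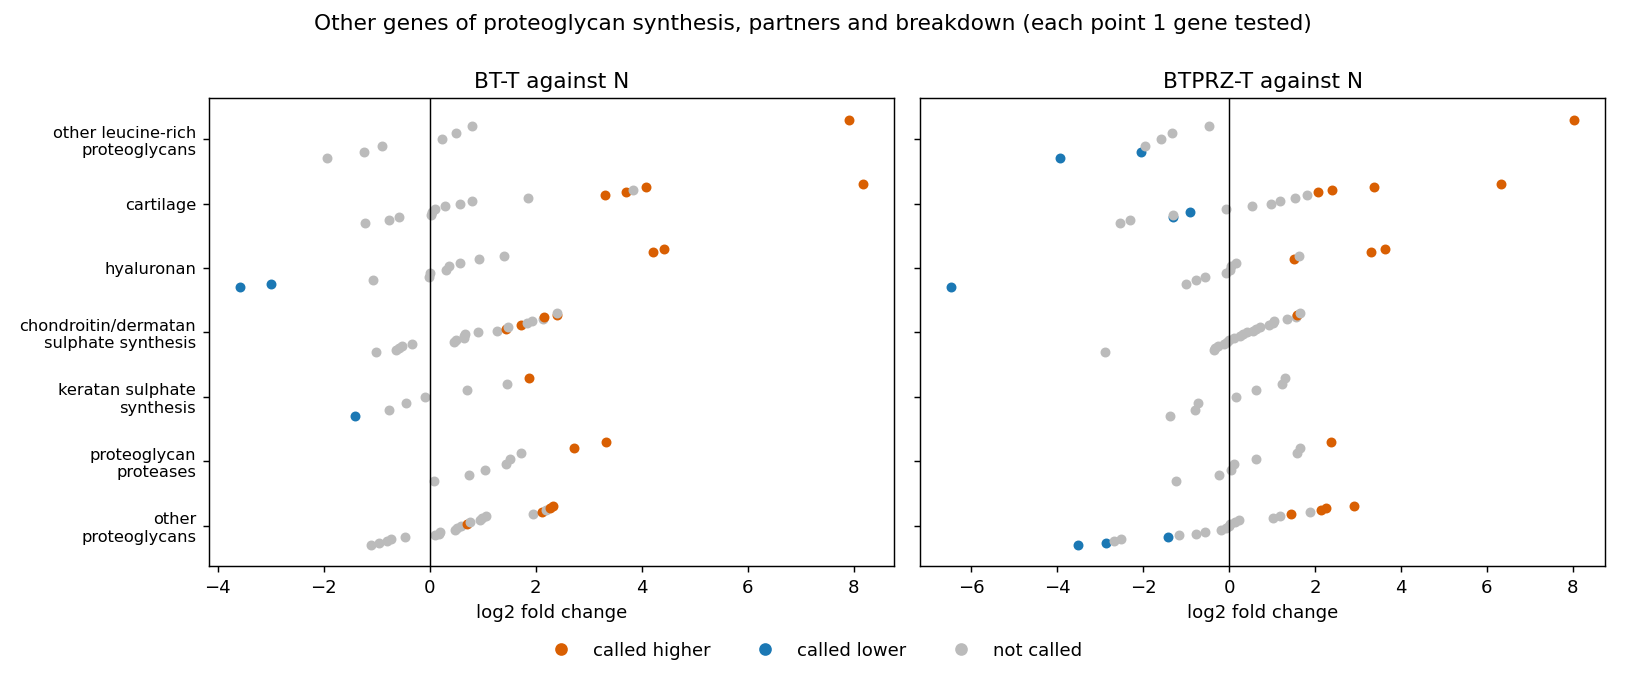
Log2 fold change of each tested gene (points) in the 7 lists, for BT-T against N (left) and BTPRZ-T against N (right), coloured by edgeR call. Called genes of chondroitin and dermatan sulphate synthesis and proteases are all higher, while the other lists hold calls in both directions in at least 1 panel; the fitted value of Podnl1, the point farthest right for other leucine-rich proteoglycans, is no bound because N had no read.

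The genes whose levels followed Acan most closely over the 12 libraries, by Pearson's r of log2 CPM, were Hmgcll1 (r = 0.972), Slc4a11 (0.970), Fzd1 (0.970), Hs2st1 (0.966) and Aldh1a3 (0.964). Fzd1 is a WNT receptor, Hs2st1 a sulphotransferase for heparan sulphate and Aldh1a3 an enzyme that makes retinoic acid. Those closest to Dcn were Colec12 (0.961), Ncf1 (0.960), Acsl4 (0.960), Mfap2 (0.956) and Rdx (0.953). Mfap2 encodes a protein of elastic microfibrils, and Ncf1 a subunit of the phagocyte oxidase. These values largely follow the differences between the 3 groups, and they are a description of 12 libraries that share their scaling.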

How the data were processed

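RNA had been sequenced from 12 libraries with a stranded poly(A) kit as single reads of 100 bases, per the labels' protocols. The submitters' processing notes name bcl2fastq 2.20, STAR 2.4.2a, the mm10 build, edgeR 3.16.5, limma and HTSeq. No annotation name is given in the sources used here. Deposited files hold raw read counts per gene, not normalized by the authors, and the stranded column that holds nearly all gene reads was used (other strand 0.819% to 0.994%). Gene positions and transcript lengths came from GENCODE for GRCm38, the assembly of mm10.

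From these counts edgeR 4.0.16 (R 4.3.3) computed TMM factors and CPM, kept 14860 of 24054 genes with filterByExpr, and fitted 1 mean per group to all 12 libraries with the robust quasi-likelihood test. Calls are at a Benjamini-Hochberg adjusted p under 0.05 over all genes tested, and SE is the absolute log2 fold change over the root of F. Log2 levels use a prior count of 2. The 95% counting intervals are exact, and both they and floors of 3 counts cover counting error only. Alternatives used other factors and filters, unstranded counts, DESeq2 1.42.0, limma 3.58.1, a replicate block, the 2 groups alone and fewer libraries.

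The 10 genes, the 7 companion lists and the markers were chosen with earlier results of these data known. Named were all 10 genes, every called gene of a list (the 4 with the lowest adjusted p where over 6 were called), fixed relatives, and the 5 genes most correlated with Acan and with Dcn. No pair of replicates agreed within sampling noise. The scripts were tested on simulated data.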

Additional observations from a re-analysis of the deposited data

Results flagged for a closer look

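Of 30 sets of 4 libraries (10 genes in 3 groups), 2 held a library far from the other 3 by Dixon's criterion, which chance meets in about 1 of 20 sets. Both were Epyc. In N, replicate 1 stood at 0.0576 CPM, which is 1 read, and the other 3 had none. Such a set meets the criterion by construction, so the rate of 1 in 20 does not apply to it. In BTPRZ-T, replicate 4 stood at 4.54 CPM and the next library at 0.766 CPM.

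Dsel differed between the tumour groups in the test of that difference, at -1.43 on the log2 scale for BTPRZ-T against BT-T, with 4 of 4 BTPRZ-T libraries below all BT-T libraries. The adjusted p was 0.0482 by edgeR, and over the alternatives it ran from 1.87e-05 to 0.167.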

How the results depend on the processing

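Leaving out 1 library at a time gave these ranges of called numbers. In BT-T against N, all genes ran from 624 to 2030 (1274 with all libraries), companion genes from 12 to 27 and the proteoglycan genes from 5 to 6. In BTPRZ-T against N they ran from 1076 to 4855 (1760 with all), 14 to 33 and 4 to 7, and in BTPRZ-T against BT-T from 0 to 2714 (112 with all), 0 to 19 and 0 to 7. The highest numbers of all genes came without N replicate 2. With the 3 libraries of fewest detected genes left out together, all genes called were 4359, 5311 and 3723, companion genes 44, 40 and 43, and proteoglycan genes 8 between the tumour groups. DESeq2 called 2394, 3048 and 1217 genes, and between the tumour groups 14 companion and 6 proteoglycan genes. Limma voom with sample quality weights called 6156, 8211 and 7734 of 14860 genes, 58, 54 and 66 companion genes, and 8 proteoglycan genes in each comparison. Limma voom without weights called 266 genes, 2 companion and 2 proteoglycan genes between the tumour groups. Fitting the 2 groups alone called 647 genes, 10 companion and 2 proteoglycan genes in BTPRZ-T against N, and 1568, 14 and 4 between the tumour groups. With no filter on low counts 0 companion genes were called there. The cause was not tested.

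The share of calls that were higher was 66.2% in BT-T against N, 56.5% with DESeq2, 48.6% with quality weights and 56.1% without the 3 libraries. Between the tumour groups it was 20.5%, and 47.9% with those groups alone, 47.1% with quality weights and 39.7% without the 3 libraries.

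Replicate numbers were not taken as pairs, since the labels tie them to nothing and not every same-numbered pair correlated above 0.1: the correlation of same-numbered deviations was -0.249 to 0.239 for BT-T and N, -0.297 to 0.213 for BTPRZ-T and N, and 0.0712 to 0.315 for the tumour groups, where 8 of 8 libraries correlated best with their own number, a hint from the data that those numbers share something (3 of 4 pairs were above 0.1). With the number as a block, 945 genes were called in BT-T against N (74.3% higher), 1160 in BTPRZ-T against N and 1 between the tumour groups, where 0 companion and 0 proteoglycan genes were called, so that Ogn and Dsel lost their calls.

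Of 718 fold changes of the 10 genes under alternatives, 708 moved by less than the spread between libraries and 10 by more, all of Acan or Epyc against N, and none changed sign. Of 1051 values of called companion genes, 165 lost the call and none changed sign. Epyc's few reads in N limit its fold change.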
